A study of Mus musculus with 14 samples.

Results

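Collagens I, III and V build the fibrils of bone and of the marrow stroma, and the 10 genes followed here encode their chains and the proteins that chaperone and trim them. The genes were selected by name and not by a cut on their levels, but with earlier results of these data known. They were the type I chains Col1a1 and Col1a2, the type III chain Col3a1, the type V chains Col5a1, Col5a2 and Col5a3, the collagen chaperone Serpinh1, the procollagen C-proteinase Bmp1 and the C-proteinase enhancers Pcolce and Pcolce2. They are 10 of the 55427 genes listed in the TPM table, made up of 6 chains and 4 processing genes, and all 10 were present in the count table of 30503 genes.

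The RNA came from 14 clonal cultures of stromal cells from femoral marrow, each expanded from 1 cell that carried the tdTomato reporter at the R26R locus. Recombination was driven by the Fgfr3-creER transgene after tamoxifen at P21, so that a clone stems from whichever cell expressed the transgene at that time. The Fgfr3-WT (P23) group held 5 clones of genotype Fgfr3-creER; R26R(tdTomato/+), isolated at postnatal day 23 and grown to passage 8. Both conditional knockout groups carried Fgfr3-creER; Trp53fl/fl; R26R(tdTomato/+), in which the same recombinase also removes Trp53, and comprised 5 clones isolated at P28 and grown to passage 8 (Fgfr3-p53 cKO (P28)) and 4 clones isolated at 4 months and grown to passages 6 to 8 (Fgfr3-p53 cKO (P4M)). The study's legend counts as many mice as clones in each group, while the labels do not tie clones to mice, and the clone numbers below are running numbers within a group. The libraries of all Fgfr3-WT clones bear submission number 1303 and those of all cKO clones 2963. Submission and genotype therefore cannot be told apart in any comparison with Fgfr3-WT. Age at isolation differed as well, since no cKO clone was isolated at the age of the Fgfr3-WT clones. According to the paper, cKO clones grew faster than wild-type clones and could more often be passaged for long. Time in culture and selection of surviving clones are therefore also tied to genotype in these comparisons.

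Total counts lay between 25688946 and 52857424 per clone, and no library repeated another within a group. Trp53 was at 38.1 to 59.7 TPM in the Fgfr3-WT clones, at 2.31 to 2.80 TPM in the P28 clones and at 1.55 to 2.09 TPM in the P4M clones, in the direction of the labels. Of the stromal markers, Prrx1, Pdgfra, Pdgfrb, Twist1 and Twist2 together reached 112.4 to 267.5 TPM in the Fgfr3-WT clones, 212.5 to 555.0 TPM in the P28 clones and 201.0 to 331.7 TPM in the P4M clones. In the same order, the endothelial list summed to 0 to 0.25, 0.15 to 1.27 and 0.73 to 3.25 TPM. The blood list summed to 6.06 to 66.0, 2.53 to 4.09 and 2.27 to 9.52 TPM. Within it, Cd68 had means of 23.8, 2.9 and 4.2 TPM, whereas Csf1r had 0.09, 0.29 and 0.195 TPM. The sum of smooth muscle and pericyte markers (Acta2, Myh11, Cnn1, Rgs5) was 0.86 to 83.0 TPM in Fgfr3-WT, 1456 to 3619 TPM in P28 and 337.8 to 515.1 TPM in P4M clones. Rgs5 went the other way, with means of 4.69, 0.336 and 0.09 TPM. Reticular and adipocyte markers (Cxcl12, Lepr, Adipoq, Plin1, Pparg) summed to 2.34 to 189.2, 285.4 to 412.7 and 72.8 to 289.4 TPM. Cxcl12 had means of 34.0, 303.1 and 122.5 TPM, whereas Pparg had 12.2, 25.7 and 6.80 TPM. Adipoq and Plin1 were at most 0.2 TPM in any clone. The part of these markers in the collagen values was not tested, and osteoblast and chondrocyte markers are given beside the results they touch. Levels are given in TPM, a transcript abundance scaled by gene length and library, which allows genes to be compared. Differences are log2 fold changes of counts with their SE from edgeR, with p adjusted over the 17358 genes tested and called at an FDR of 0.05. Under limma on log2(TPM + 1) the median gene lay 0.27 higher (log2) in P28 against Fgfr3-WT and 0.15 higher in P4M against Fgfr3-WT than in the edgeR fit.

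Type I collagen is a trimer of chains from Col1a1 and Col1a2, and it is the main protein of bone matrix. Type III collagen, a homotrimer of the Col3a1 chain, accompanies it in soft and early tissue. Type V collagen, assembled mainly from Col5a1 and Col5a2 chains and in some tissues with the Col5a3 chain, sits inside type I fibrils and sets their start and width. Procollagen folds in the endoplasmic reticulum with the help of Serpinh1, and after secretion Bmp1 cuts off the C-propeptide while Pcolce and Pcolce2 speed up that cut.

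RefSeq start-site windows (GRCm38.p6) were at hand for 7 of the 10 genes. Those of Col1a2 and Col3a1 are shown because these genes had the widest range of levels among the Fgfr3-WT clones. Each is the stretch of the window that no annotated exon of the gene covers, on the plus strand at chr6:4505370-4505492 and at chr1:45311288-45311537, with matches to a GC box (GGGCGG or CCGCCC) or a TATA box (TATAAA) in capitals.
Col1a2: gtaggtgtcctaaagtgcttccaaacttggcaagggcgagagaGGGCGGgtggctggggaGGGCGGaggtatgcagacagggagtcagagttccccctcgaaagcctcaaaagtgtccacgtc
Col3a1: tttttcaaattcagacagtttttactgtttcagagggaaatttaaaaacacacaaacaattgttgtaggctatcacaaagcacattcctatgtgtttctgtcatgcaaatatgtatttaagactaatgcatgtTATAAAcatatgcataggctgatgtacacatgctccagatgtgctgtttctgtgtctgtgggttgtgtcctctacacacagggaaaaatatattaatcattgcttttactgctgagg
The Col1a2 stretch held 2 GC boxes, at 205 to 200 and at 188 to 183 bases before the start, and the Col3a1 stretch held TATAAA at 117 to 112 bases before it. Among 32851 RefSeq windows of the same 250 bases, 32.7% held a GC box on either strand and 7.59% held TATAAA on the gene's strand. GC boxes were also found before Col5a1, Col5a3, Serpinh1, Pcolce and Pcolce2. A CCAAT box (CCAAT or ATTGG, in 33.8% of windows) was found before Col1a2, at 109 to 105 bases and outside the stretch shown, and before Col5a3. These matches describe the letters only.

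All 10 genes passed the filter on low counts and were tested. In P28 against Fgfr3-WT, 3 of the 10 were higher (Col1a1, Col5a1 and Bmp1) and 0 were lower, where 19.2% of all tested genes were called higher and 19.7% lower. The same 3 genes were called higher in P4M against Fgfr3-WT and again 0 lower, beside 22.3% higher and 23.6% lower of all genes. With both cKO groups averaged against Fgfr3-WT, 4 were higher (Col1a1, Col5a1, Col5a2 and Bmp1) and 1 was lower (Pcolce2), beside 23.1% and 25.7% of all genes. The counts of members called are thus close to the background. The median log2 fold change of the 10 was 1.65 in P28, 1.24 in P4M and 1.45 in all cKO clones, against -0.02, -0.06 and -0.05 over all tested genes. The comparisons with Fgfr3-WT share the same 5 control clones.

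Between the cKO groups, 0 of the 10 genes differed by edgeR in P4M against P28, where 3.34% of all genes were called higher and 3.88% lower. At an unadjusted p under 0.05 there was 1, Bmp1, and the share of all genes at that threshold was not counted. DESeq2 and limma also called 0. The median log2 fold change of the 10 was -0.01 and equalled that of all genes to 2 decimals.

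**Figure D1:**
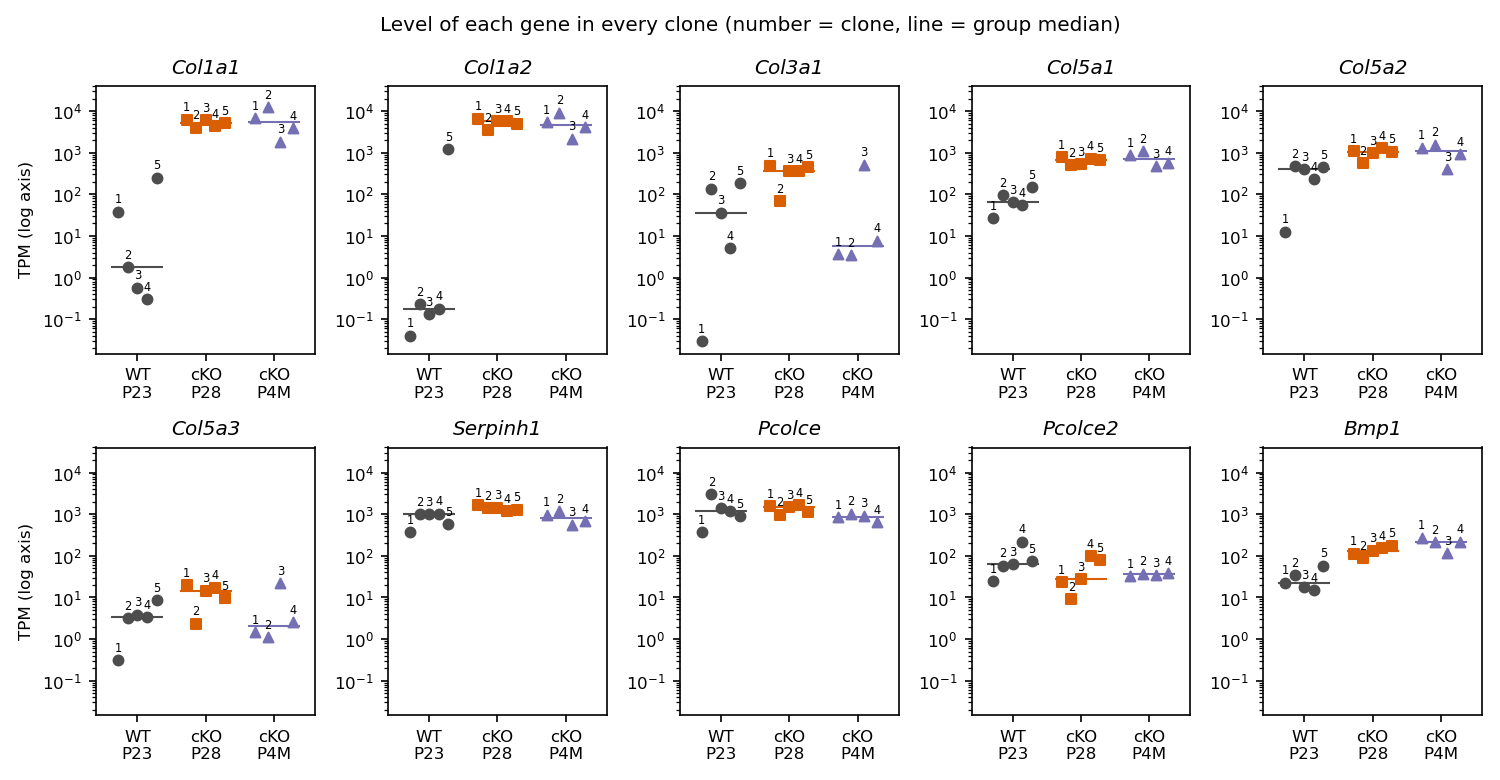
TPM (log axis) of the 10 genes in each of the 14 clones, with 1 panel per gene, circles for Fgfr3-WT (P23), squares for Fgfr3-p53 cKO (P28), triangles for Fgfr3-p53 cKO (P4M), clone numbers above the points and a line at each group's median. Among the Fgfr3-WT clones Col1a1 runs from 0.30 to 251.1 TPM and Col1a2 from 0.04 to 1213 TPM, whereas they lie within 1842 to 12374 TPM (Col1a1) and 2181 to 9089 TPM (Col1a2) in the 9 cKO clones.

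**Figure D2:**
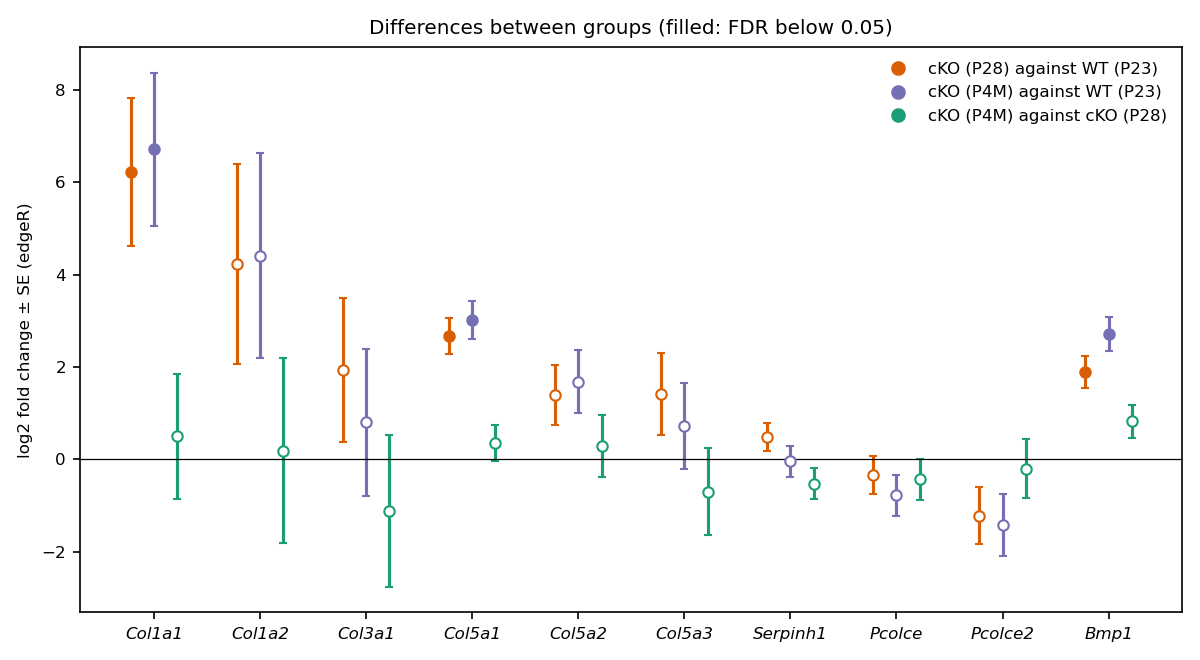
Log2 fold change with its SE (edgeR, 14 clones) of each gene in 3 comparisons, filled where the FDR was below 0.05. Col1a1, Col5a1 and Bmp1 are filled against Fgfr3-WT in both cKO groups, Col1a2 is as high as 4.41 but open, and no gene is filled in P4M against P28.

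Col1a1 (ENSMUSG00000001506, mm10 chr11:94936224-94953042, plus strand) encodes the alpha1 chain of type I collagen. In the Fgfr3-WT clones it was at 38.2, 1.79, 0.57, 0.30 and 251.1 TPM (clones 1 to 5). In the P28 clones it was at 6206, 4023, 5982, 4288 and 5082 TPM, and in the P4M clones at 6862, 12374, 1842 and 3934 TPM. Each of the 9 cKO clones lay above all 5 Fgfr3-WT clones, of which clones 2 to 4 had almost none and clone 5 the most. It was higher by 6.22 on the log2 scale (SE 1.60, adjusted p = 0.00819, edgeR) in P28 and by 6.72 (SE 1.66, adjusted p = 0.00537, edgeR) in P4M. The call held in each of the 14 fits that left out 1 clone, in both comparisons. Col1a1 is among the osteoblast genes that the study picked on these clones, so its direction is not independent evidence.

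Col1a2 (ENSMUSG00000029661, chr6:4504814-4541544, plus strand) encodes the alpha2 chain. Its TPM in Fgfr3-WT clones 1 to 4 was 0.04, 0.23, 0.13 and 0.18, from 1, 22, 12 and 28 counts, while clone 5 stood at 1213 TPM from 110028 counts. The P28 clones were at 6584, 3435, 5685, 5713 and 4941 TPM and the P4M clones at 5382, 9089, 2181 and 4068 TPM. Thus 4 of the 5 Fgfr3-WT clones had next to no Col1a2 RNA, and the 9 cKO clones lay above clone 5 as well. The edgeR fold change, which follows the group mean and so clone 5, was 4.23 (SE 2.17, adjusted p = 0.139) in P28 and 4.41 (SE 2.23, adjusted p = 0.121) in P4M, and Col1a2 was not called. Without Fgfr3-WT clone 5 it was called at 14.88 (adjusted p = 1.39e-06) in P28 and 15.06 (adjusted p = 2.35e-06) in P4M. DESeq2 called it on all clones (adjusted p = 0.0448 and 0.0428), as did limma on log2(TPM + 1).

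The type I chains were close to even in every cKO clone, which was not so among the Fgfr3-WT clones. The ratio of Col1a1 to Col1a2 TPM ranged from 0.751 to 1.36 over the 9 cKO clones. It was 955.0 in Fgfr3-WT clone 1, 7.78 in clone 2, 4.38 in clone 3, 1.67 in clone 4 and 0.207 in clone 5, where clones 2 to 4 had at most 199 counts of Col1a1 and 28 of Col1a2. Clone 1 therefore held Col1a1 (4714 counts) with a single Col1a2 count, whereas clone 5 had more Col1a2 than Col1a1. The mean log2 ratio (CPM, prior count 2) was 2.98 ± 4.82 (SD, n = 5) in Fgfr3-WT and 0.21 ± 0.27 (SD, n = 9) in all cKO clones, a difference of -2.77 that did not pass (exact permutation test, two-sided, p = 0.0949, adjusted p = 0.19 over 28 tests of 7 ratios in 4 comparisons). The means hide a difference in spread that was not tested.

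Counted together, 4 of the 10 genes (Col1a1, Col1a2, Col5a1 and Bmp1) lay higher in all 9 cKO clones than in all 5 Fgfr3-WT clones on the log2 CPM scale, beside 9.73% of all tested genes. In the P28 clones alone this held for 5 genes, with Col5a2 added, beside 13.0% of all genes. In the P4M clones alone it held for the same 4 as in all cKO clones, beside 17.8% of all genes.

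Osteoblast markers moved with the type I chains in part. Of the Fgfr3-WT clones, clone 5, with the most type I collagen, also had the most Sp7, a transcription factor of osteoblast commitment, at 19.4 TPM, where clones 1 to 4 had at most 0.10 TPM. It was the only Fgfr3-WT clone with any Ibsp (70.6 TPM), which encodes bone sialoprotein. Bglap and Bglap2, which encode osteocalcin, instead peaked in Fgfr3-WT clone 4, the clone with the least Col1a1, at 75.6 and 418.7 TPM against 27.9 and 40.1 TPM in clone 5. In the P28 clones, however, Col1a1 was at 4023 to 6206 TPM in the clones with low and at 4288 and 5082 TPM in those with high osteoblast genes. Sp7 was at 1.98, 5.54 and 3.30 TPM in P28 clones 1 to 3 and at 175.4 and 174.8 TPM in clones 4 and 5, and Bglap was at 1.71 to 4.47 TPM in the former and at 851.8 and 954.3 TPM in the latter. Summed over the list (Bglap, Bglap2, Ibsp, Alpl, Sp7, Dmp1), markers reached 3.85 to 495.9 TPM in Fgfr3-WT, 21.9 to 3521 TPM in P28 and 4116 to 7686 TPM in P4M clones. In such bulk RNA, fewer cells of a kind and less RNA per cell cannot be told apart.

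**Figure D3:**
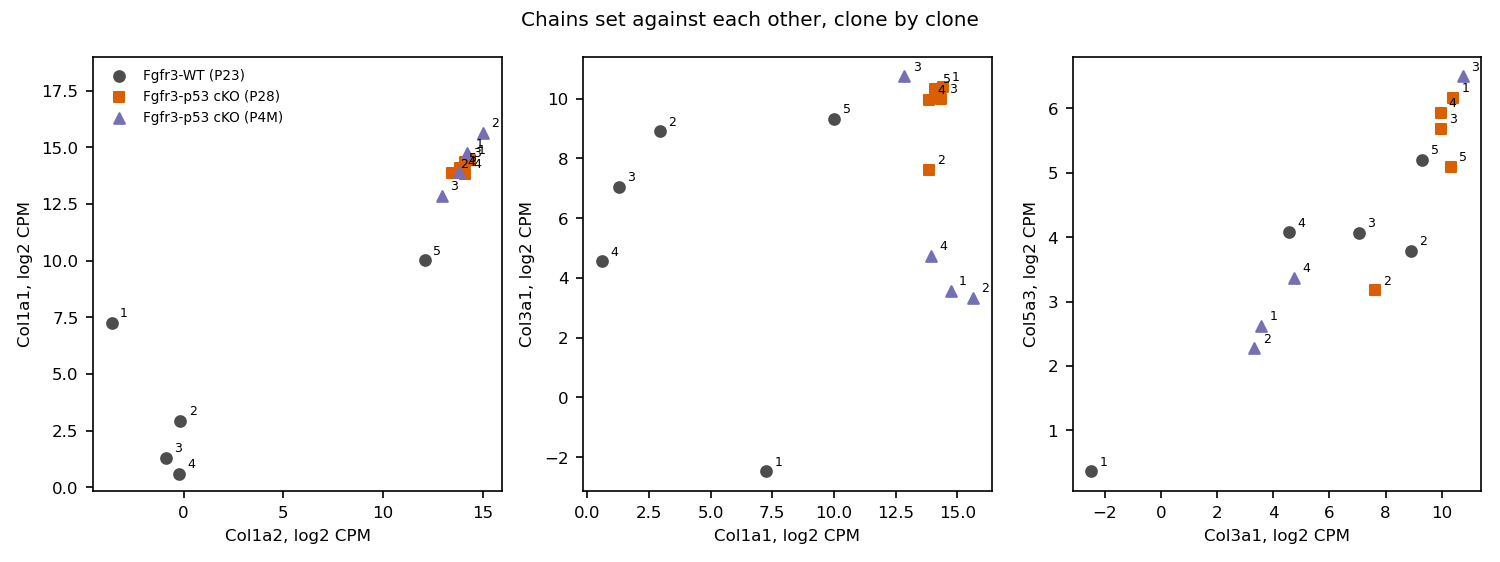
Log2 CPM of Col1a1 against Col1a2, Col3a1 against Col1a1 and Col5a3 against Col3a1, 1 point per clone with its number (circles Fgfr3-WT, squares P28, triangles P4M). The cKO clones form a tight line in the first panel (log2 ratio 0.21 ± 0.27 SD, n = 9), while in the second panel P4M clones 1, 2 and 4 drop away from P4M clone 3 at high Col1a1.

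Col3a1 (ENSMUSG00000026043, chr1:45311538-45349706, plus strand) encodes the type III chain, and it did not follow the type I chains. The Fgfr3-WT clones had 0.03, 136.6, 36.1, 5.14 and 182.5 TPM. The P28 clones had 489.6, 67.5, 357.0, 356.9 and 450.7 TPM, and the P4M clones 3.70, 3.49, 516.2 and 7.69 TPM. Hence P4M clones 1, 2 and 4 had less Col3a1 than any P28 clone although their Col1a1 was at 3934 TPM or more, and P4M clone 3, with the least Col1a1 of the cKO clones, had the most Col3a1 of all 14. The groups overlapped, and the fold change was 1.93 (SE 1.56, adjusted p = 0.350, edgeR) in P28 and 0.80 (SE 1.59, adjusted p = 0.708) in P4M. Between the cKO groups it was -1.12 (SE 1.64, adjusted p = 0.711). P4M clone 3 set the sign against Fgfr3-WT, which was -3.97 without it (adjusted p = 0.0645). Against P28 the difference was -5.90 without that clone (adjusted p = 0.0767).

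Per unit of Col1a2, Col3a1 was lower on average in the cKO clones, with overlap between the groups. The TPM ratio of Col3a1 to Col1a2 was 0.0197 to 0.0912 in the P28 clones, 0.000384 to 0.00189 in P4M clones 1, 2 and 4 and 0.237 in P4M clone 3, whereas in Fgfr3-WT clones 1 to 5 it was 0.750, 593.9, 277.5, 28.6 and 0.150. Fgfr3-WT clone 5 thus lay below P4M clone 3. In Fgfr3-WT clones 1 to 4 the ratio rests on 1, 22, 12 and 28 counts of Col1a2, and in clone 1 on 4 counts of Col3a1. Col3a1 itself was not called in any comparison, so the ratio mostly restates how low Col1a2 was in those clones. The log2 ratio differed by -10.16 in all cKO clones against Fgfr3-WT (exact permutation test, two-sided, p = 0.002, adjusted p = 0.028). This held in 11 of 14 recalculations without 1 clone, with an adjusted p of up to 0.0783 (without Fgfr3-WT clone 2). For Col3a1 to Col1a1 the difference was -7.39 and did not pass (exact permutation p = 0.022, adjusted p = 0.103). Fgfr3-WT clone 1, which had Col1a1 but 4 counts of Col3a1, lay at -9.74 there, and without it the adjusted p was 0.0261.

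Type V chains were present in every clone. Col5a1 (ENSMUSG00000026837, chr2:27886425-28039514, plus strand) was at 27.2, 94.8, 64.2, 55.2 and 150.9 TPM in the Fgfr3-WT clones. It stood at 778.1, 503.9, 534.7, 722.1 and 650.1 TPM in the P28 clones and at 876.0, 1086, 475.2 and 568.9 TPM in the P4M clones. The groups were far apart, with the lowest cKO clone at 475.2 TPM and the highest Fgfr3-WT clone at 150.9 TPM. Col5a1 was higher by 2.66 (SE 0.39, adjusted p = 0.000257, edgeR) in P28 and by 3.02 (SE 0.40, adjusted p = 0.000119) in P4M, and both calls held without any 1 clone. It had the lowest adjusted p of the 10 genes in both comparisons. The noncoding genes 2810430I11Rik and Gm13372 overlap it on the other strand, and with a kit that does not mark strand such reads cannot be told apart. According to the methods, reads that could not be assigned without ambiguity were left out of the counts. For the TPM values this is not described.

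Col5a2 (ENSMUSG00000026042, chr1:45374321-45503282, minus strand) is the neighbour of Col3a1, tail to tail, with 24614 bp between them. Its TPM was 12.6, 473.2, 398.7, 228.9 and 446.4 in the Fgfr3-WT clones, 1103, 561.8, 965.1, 1288 and 1050.0 in the P28 clones and 1323, 1565, 404.3 and 919.5 in the P4M clones. Fgfr3-WT clone 1 was far below the rest, and P4M clone 3 lay within the Fgfr3-WT range. The change of 1.39 in P28 (SE 0.65, adjusted p = 0.107, edgeR) and of 1.68 in P4M (SE 0.68, adjusted p = 0.0587) was not called. Averaged over the cKO groups it passed narrowly (1.53, SE 0.60, adjusted p = 0.0494), and only 2 of 14 fits without 1 clone kept that call, with an adjusted p of up to 0.0961. Without Fgfr3-WT clone 1 it was called in each group, at 1.05 (adjusted p = 0.0329) in P28 and 1.35 (adjusted p = 0.0102) in P4M, where leaving out P4M clone 3 also gave a call (1.95, adjusted p = 0.0418). Unlike Col3a1 next to it, Col5a2 was at 919.5 TPM or more in P4M clones 1, 2 and 4.

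Col5a3 (ENSMUSG00000004098, chr9:20770050-20815067, minus strand) was the rarest chain, at 0.31 to 8.73 TPM (median 3.38) in the Fgfr3-WT clones. The P28 clones ran from 2.35 to 19.5 TPM (median 14.5), and the P4M clones were at 1.48, 1.12, 21.8 and 2.55 TPM. The highest P4M clone was again clone 3, and the lowest P28 clone was again clone 2, as for Col3a1. No comparison of Col5a3 was called, with fold changes of 1.41 in P28 (adjusted p = 0.230, edgeR) and 0.71 in P4M (adjusted p = 0.558). Its deviations from the group means followed those of Col3a1 (Pearson r = 0.907 over 14 clones), the closest pair among the 10 genes. The next closest pair was Col5a1 with Col5a2 (r = 0.828), and Col1a1 with Col1a2 reached 0.624. These correlations describe libraries that share depth and scaling within a clone, and no p is given. Deviations were not scaled by the spread within a group, so the value for Col1a1 with Col1a2 rests mainly on the Fgfr3-WT clones.

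Added together, the 6 chains made up 78.3 to 2252 TPM in the Fgfr3-WT clones, 8594 to 15181 TPM in the P28 clones and 5441 to 24119 TPM in the P4M clones. As a share of all TPM this was 0.0768% ± 0.0863 (SD, n = 5), 1.24% ± 0.243 (SD, n = 5) and 1.34% ± 0.806 (SD, n = 4). What the chains were also differed. Type V chains led in Fgfr3-WT clones 2 to 4, where Col5a2 alone was 66.7% to 79.2% of chain TPM and the type I chains were under 0.3%. In Fgfr3-WT clone 1 Col1a1 (48.8%) and Col5a1 (34.7%) led, and in clone 5 Col1a2 (53.8%). In the cKO clones Col1a1 took 33.9% to 51.3% and Col1a2 37.2% to 46.1% of chain TPM. Col5a1 and Col5a2 together with Col3a1 and Col5a3 made up the rest, and Col3a1 exceeded 4% only in P4M clone 3 (9.49%).

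**Figure D4:**
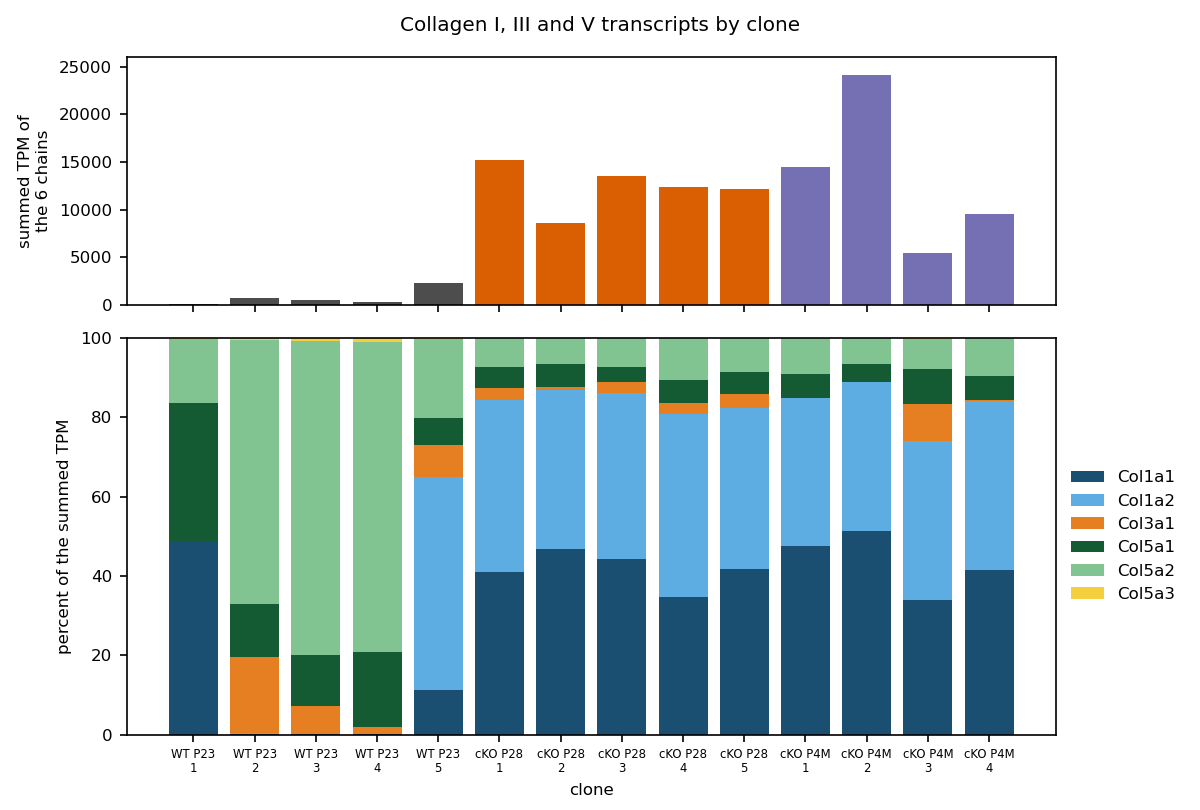
Summed TPM of the 6 chains per clone (upper bars) and the percent of that sum taken by each chain (stacked lower bars) in the 14 clones. Fgfr3-WT clones differ from each other in which chain leads, while the type I chains (dark and light blue) fill most of the bar in all 9 cKO clones.

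Except for Pcolce2, clones differed least in the P28 group. The SD of log2 CPM for Col1a1 was 4.06 in Fgfr3-WT, 0.27 in P28 and 1.18 in P4M, which is at the 99.7th, 40.7th and 93.7th percentile of all tested genes in these groups. For Col1a2 it was 6.12, 0.33 and 0.87, the first being at the 100th percentile as rounded. Col3a1 varied in every group, with an SD of 4.82, 1.16 and 3.49 and percentiles from 91.2 to 99.9. Serpinh1, with 0.75, 0.21 and 0.51, and Bmp1, with 0.75, 0.34 and 0.53, lay between percentiles 28.8 and 73.6 of all tested genes. Ranked only against the 9660 better-expressed genes (average log2 CPM 3 or higher), Serpinh1 was at percentiles 85.2, 44.2 and 89.2. Bmp1 was at 85.1, 72.8 and 90.0 there, so both varied more than most such genes in Fgfr3-WT and P4M. Col1a1 was at 99.7, 59.8 and 98.5 in that ranking. Pcolce2 varied least in P4M (0.13) and most in P28 (1.31).

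Serpinh1 (ENSMUSG00000070436, chr7:99345376-99353239, minus strand) encodes the chaperone that binds procollagen in the endoplasmic reticulum. It was at 367.5, 995.7, 1004, 1033 and 571.8 TPM in the Fgfr3-WT clones. The P28 clones had 1632, 1416, 1442, 1165 and 1288 TPM and the P4M clones 967.3, 1187, 559.6 and 669.8 TPM. Serpinh1 was thus abundant in clones with and without type I collagen, and P4M and Fgfr3-WT clones overlapped. The fold change was 0.48 (SE 0.31, adjusted p = 0.234, edgeR) in P28 and -0.05 (SE 0.33, adjusted p = 0.919) in P4M. Relative to the sum of Col1a1 and Col1a2, Serpinh1 differed by -9.64 on the log2 scale in all cKO clones (p = 0.000999 by a two-sided exact permutation test, which is the lowest that 5 against 9 clones allow, adjusted p = 0.028), and this too held in 11 of 14 recalculations without 1 clone (adjusted p of up to 0.0783, without Fgfr3-WT clone 2). The TPM ratio was 492.9 to 2152 in Fgfr3-WT clones 2 to 4, 9.61 in clone 1 and 0.391 in clone 5, and 0.0553 to 0.190 in the 9 cKO clones, without overlap. Serpinh1 itself differed by 0.22 in all cKO clones (adjusted p = 0.538, edgeR), so this ratio mostly restates the type I chains.

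Bmp1 (ENSMUSG00000022098, chr14:70474558-70520234, minus strand) encodes the metalloprotease that removes the C-propeptide and so lets collagen assemble into fibrils. The Fgfr3-WT clones had 22.7, 33.7, 17.8, 15.2 and 58.2 TPM. The P28 clones had 113.0, 88.4, 133.1, 153.5 and 174.5 TPM, and the P4M clones had 272.1, 214.3, 115.7 and 220.0 TPM. All cKO clones lay above all Fgfr3-WT clones, and clone 5 was again the highest Fgfr3-WT clone. Bmp1 was higher by 1.88 (SE 0.35, adjusted p = 0.00122, edgeR) in P28 and by 2.70 (SE 0.37, adjusted p = 0.000138) in P4M, calls that held without any 1 clone. Between P4M and P28 the difference of 0.82 (SE 0.36, adjusted p = 0.165) did not pass.

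The enhancers of this cleavage showed no such pattern. Pcolce (ENSMUSG00000029718, chr5:137605103-137613784, minus strand) was at 365.6, 3036, 1397, 1178 and 881.8 TPM in the Fgfr3-WT clones, at 965.6 to 1629 TPM (median 1448) in the P28 clones and at 642.0 to 1031 TPM (median 878.8) in the P4M clones. The groups overlapped, and the fold changes of -0.35 (adjusted p = 0.535, edgeR) and -0.78 (adjusted p = 0.166) were not called. Without Fgfr3-WT clone 1, the difference was -1.05 (adjusted p = 0.0233) in P4M and -0.84 (adjusted p = 0.0245) in all cKO clones. Pcolce overlaps Fbxo24 on the same strand and an antisense gene, and such reads cannot be told apart. By the methods, only reads assigned without ambiguity entered the counts, and how the TPM values treat the others is not described.

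Pcolce2 (ENSMUSG00000015354, chr9:95637601-95698096, plus strand) was at 24.7, 57.9, 61.9, 219.7 and 73.1 TPM in the Fgfr3-WT clones. It was at 23.4, 9.11, 27.5, 96.8 and 78.4 TPM in the P28 clones and at 32.6, 37.2, 34.5 and 38.3 TPM in the P4M clones. P28 clones 4 and 5, those with high Sp7, had more Pcolce2 than P28 clones 1 to 3. The fold change was -1.23 (adjusted p = 0.131, edgeR) in P28, -1.43 (adjusted p = 0.0958) in P4M and -1.33 in all cKO clones, where it passed narrowly (adjusted p = 0.0495). That call was kept in 3 of 14 fits without 1 clone and fell to -0.58 (adjusted p = 0.326) without Fgfr3-WT clone 4. Without Fgfr3-WT clone 1, Pcolce2 was called in P4M (-1.66, adjusted p = 0.0487). Gm16126 and Gm16127 overlap Pcolce2 on the other strand.

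By group median, the order of levels in the P28 clones was Col1a2 (5685 TPM), Col1a1 (5082), Pcolce (1448), Serpinh1 (1416), Col5a2 (1050.0), Col5a1 (650.1), Col3a1 (357.0), Bmp1 (133.1), Pcolce2 (27.5) and Col5a3 (14.5). In the Fgfr3-WT clones Pcolce (1178), Serpinh1 (995.7) and Col5a2 (398.7) led, and Col1a1 (1.79) and Col1a2 (0.18) came last. In the P4M clones Col3a1 dropped to 5.70 by median, below Pcolce2 (35.8). Most neighbours in these orders overlapped in their ranges over the clones of a group. Some of these still kept their order in each clone, and the rest cannot be ordered. In P28, Col5a2 lay above Col5a1, Bmp1 above Pcolce2 and Pcolce2 above Col5a3 in each clone. So did Serpinh1 above Col5a1 and Col3a1 above Col5a3 in P4M, and Serpinh1 above Col5a2 in Fgfr3-WT. Neighbours whose ranges did not overlap were, in P28, Col1a1 with Pcolce and Col5a1 with Col3a1, in P4M, Col1a2 with Col5a2, Col5a1 with Bmp1 and Bmp1 with Pcolce2, and in Fgfr3-WT, Bmp1 with Col5a3.

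The genes whose deviations from the group means were most like those of Col1a1, among 9654 genes above a mean log2 CPM of 3, were Ubr1 (Pearson r = 0.975 over 14 clones), Oip5os1 (0.942), Fubp3 (0.938) and Ncoa6 (0.926). For Col3a1 they were Dse (0.936), B2m (0.920), Gga2 (0.917), Col5a3 (0.907) and Phldb2 (0.906), and for Col5a1 they were Mxd4 (0.964), Snx7 (0.934), Suclg1 (0.923), Fat1 (0.919) and Zbtb33 (0.914). Dse encodes a dermatan sulfate epimerase and B2m the light chain of MHC class I. All are descriptions over clones that share depth and scaling. Deviations were not scaled by the spread within a group, so the Fgfr3-WT clones, the widest for Col1a1, Col3a1 and Col5a1, weigh most. For Col1a1 the SD of log2 CPM was 4.06 in Fgfr3-WT, 0.27 in P28 and 1.18 in P4M, so its r rests mainly on the Fgfr3-WT clones.

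Of 17 genes that modify and fold procollagen in the endoplasmic reticulum, all tested, 8 were lower and 1 was higher in all cKO clones against Fgfr3-WT, beside 25.7% lower and 23.1% higher of all tested genes, with a median log2 fold change of -0.60 against -0.05 over all tested genes. P4ha1, a prolyl 4-hydroxylase subunit needed for stable trimers, fell by 1.31 (SE 0.17, adjusted p = 6.16e-05, edgeR), from 298.6 to 570.8 TPM in Fgfr3-WT to 128.5 to 370.9 TPM in the cKO clones, of which P4M clone 3 overlapped with Fgfr3-WT. By group P4ha1 differed by -1.79 in P28 and -0.82 in P4M, and P4M against P28 was called higher (0.97, adjusted p = 0.0167, edgeR). P4ha3 was called lower in P4M (-2.44, adjusted p = 0.00841, edgeR) but not in P28 (0.33, adjusted p = 0.675). Plod2, which hydroxylates lysines of the telopeptides, fell by 1.28 (adjusted p = 0.000208). The prolyl 3-hydroxylase family members P3h2, P3h3 and P3h4 fell by 3.04, 1.67 and 1.47, and Colgalt2, a collagen galactosyltransferase, fell by 7.62. Colgalt2 was at 8.21, 4.26, 10.1, 15.9 and 0.11 TPM in the Fgfr3-WT clones, lowest in clone 5, and at 0.02 to 0.07 TPM in the cKO clones. The calls of P4ha1, Plod2, P3h2, P3h3, P3h4 and Colgalt2 in all cKO clones held in each alternative that gave a value. Ppib and Fkbp14, also called lower there, kept the call in 11 and 18 of 21 alternatives. Fkbp10, a prolyl isomerase of collagen, rose by 0.78 (adjusted p = 0.0279), and lost the call in 3 of 21 alternatives.

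Of 6 genes for procollagen export, 1 was higher and 3 were lower in all cKO clones, beside 23.1% higher and 25.7% lower of all tested genes. Sec24d, a cargo subunit of the vesicle coat, rose by 0.97 (SE 0.18, adjusted p = 0.000821, edgeR). Trappc2 fell by 1.27, Mia3, the cargo receptor for procollagen, by 0.55 (adjusted p = 0.000732) and Klhl12 by 0.33 (adjusted p = 0.0405, kept in 8 of 21 alternatives). Among 7 other procollagen proteinases, 4 were tested and 2 were higher, beside 23.1% of all tested genes. Adamts2, which removes the N-propeptide, was at 0 to 2.51 TPM in Fgfr3-WT, 11.5 to 28.9 TPM in P28 and 33.3 to 96.4 TPM in P4M clones, without overlap with Fgfr3-WT, and rose by 5.71 (SE 1.13, adjusted p = 0.00117). Tll1, a relative of Bmp1, rose by 3.43 (adjusted p = 0.0338, kept in 11 of 19 alternatives) and reached at most 5.38 TPM. By group, Tll1 was higher by 6.26 in P28 (adjusted p = 0.00351) and differed by 0.59 in P4M (adjusted p = 0.744), and P4M against P28 was called lower at -5.67 (adjusted p = 0.0339).

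Of the 5 lysyl oxidases, which cross-link fibrils, 1 was higher and 1 lower in all cKO clones, beside 23.1% higher and 25.7% lower of all tested genes. Loxl2 rose by 7.88 (SE 1.12, adjusted p = 0.000126, edgeR) and Loxl3 fell by 1.50 (adjusted p = 8.09e-05). Loxl1 was called higher in P28 (2.245, adjusted p = 0.0362, edgeR, kept in 13 of 22 alternatives) but not in P4M. Loxl2 was at 0.07 to 0.20 TPM in the Fgfr3-WT clones and at 1.79 to 140.6 TPM in the cKO clones. Lox itself was not called (-0.56, adjusted p = 0.564) and was at 1.23 TPM in Fgfr3-WT clone 1, the clone with the fewest chain transcripts, but at 458.7 TPM or more in clones 2 to 5. None of the 6 genes of collagens VI, XII, XIV and XVI was called in all cKO clones by edgeR, where 0 had an unadjusted p under 0.05 and DESeq2 and limma called 0. In P4M against P28, Col6a1 fell by 1.27 (adjusted p = 0.0345), the only 1 of the 6 called by edgeR, beside 3.88% lower of all tested genes. All 6 had an unadjusted p under 0.05, a threshold at which the share of all genes was not counted. DESeq2 called 5 lower. Of all genes it fitted there, DESeq2 called 1578 of 30503 lower. The 30503 include genes that the low-count filter removes, so this share is not comparable with that of edgeR (674 of 17358 lower).

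Of the 5 other fibrillar chains, 3 were lower and 1 was higher in all cKO clones, beside 25.7% lower and 23.1% higher of all tested genes. The cartilage chains Col2a1 and Col11a2 fell by 5.68 (SE 0.97, adjusted p = 0.000425, edgeR) and 4.37 (adjusted p = 0.00208), and Col27a1 by 3.86 (adjusted p = 5.92e-06). Col11a2 was called lower in P28 (-6.43, adjusted p = 0.00212) but not in P4M (-2.31, adjusted p = 0.125), where clone 2 had 187.6 TPM. Col24a1 rose by 4.01 (adjusted p = 0.0153, kept in 19 of 20 alternatives) and was at most 7.29 TPM. Col2a1 was highest in the Fgfr3-WT clones with the least type I collagen, at 1461, 1913 and 5426 TPM in clones 2 to 4, against 74.3 in clone 1 and 451.0 in clone 5. It was at 48.2 to 456.7 TPM in the P28 clones and at 0.90 to 14.8 TPM in the P4M clones. The chondrocyte list (Col2a1, Acan, Sox9, Col9a1, Matn3) summed to 218.5 to 5782, 61.1 to 468.1 and 8.08 to 16.9 TPM. Matn3 went the other way in P28, where edgeR called it higher, with means of 0.11, 0.794 and 0.1325 TPM in Fgfr3-WT, P28 and P4M. Whether a different mix of cell states contributed to the collagen values was not tested.

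Among 6 genes of collagen uptake and degradation, 1 was higher and 1 lower in all cKO clones, beside 23.1% higher and 25.7% lower of all tested genes. Mmp14, a membrane collagenase, rose by 1.93 (SE 0.29, adjusted p = 0.000153, edgeR), and Ctsk, a lysosomal collagenase, fell by 1.93 (SE 0.49, adjusted p = 0.00578). Of 8 regulators of type I collagen, 6 were higher and 0 lower in all cKO clones, beside 23.1% higher and 25.7% lower of all tested genes. Creb3l1, a membrane-bound transcription factor that acts on type I collagen genes in osteoblasts, was at 3.97 to 39.2 TPM in Fgfr3-WT, 75.2 to 113.4 TPM in P28 and 68.9 to 529.9 TPM in P4M clones and rose by 2.71 (SE 0.53, adjusted p = 0.00104). Nfib rose by 2.19 (SE 0.20, adjusted p = 5.23e-06), Runx2 by 1.53 (adjusted p = 0.000386) and Sp7 by 4.83 (adjusted p = 0.047, kept in 9 of 20 alternatives), the last 2 being genes that the study picked on these clones. Smad3 and Cebpb made up the 6, and Cebpb was called in P4M (1.21, adjusted p = 0.00122) but not in P28 (0.026, adjusted p = 0.936).

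**Figure D5:**
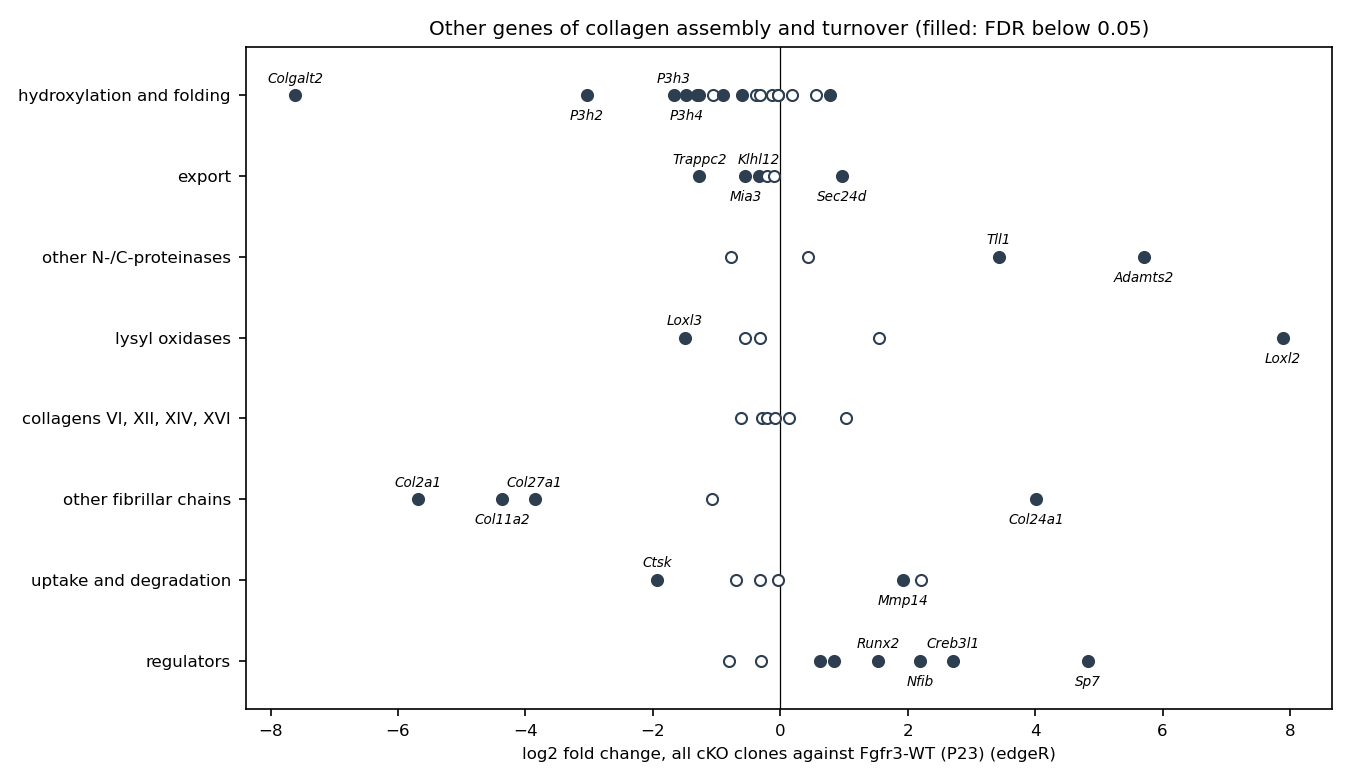
Log2 fold change in all cKO clones against Fgfr3-WT (edgeR) of the tested genes of 8 lists of collagen assembly and turnover, 1 point per gene, filled where the FDR was below 0.05, with up to 4 called genes named per list. Most called points of the modification and folding list lie left of 0, and those of the regulators lie right of it.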

How the data were processed

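Total RNA of each clonal culture was made into single-end libraries with SMART-Seq v4, a kit that does not mark strand. According to the methods, reads were aligned to mm10 with TopHat and Bowtie2 and counted with HTSeq where they could be assigned without ambiguity, and the authors deposited 1 table of raw read counts per gene for all clones and 1 table of TPM per clone. Tool versions are not given in the sources used here, and the TPM table lists 24924 more genes than the count table. TPM was used for levels and counts for tests.

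Genes were kept by filterByExpr, scaled by TMM and tested by edgeR's quasi-likelihood test (edgeR 4.0.16, R 4.3.3) in a model with the 3 groups and all 14 clones. P-values were adjusted by Benjamini-Hochberg over all genes tested, at an FDR of 0.05. Log2 CPM used a prior count of 2. The 7 ratios between members were compared by two-sided exact permutation tests (scipy 1.17.1), adjusted over 28 tests. The smallest p was 0.00794 for 5 against 5 clones, 0.0159 for 4 against 5 and 0.000999 for 9 against 5. Scripts were tested on simulated data. Alternatives were DESeq2 1.42.0, limma 3.58.1 on log2(TPM + 1), other scaling and filters, and leaving out each clone.

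Of each pathway list, the called genes with the largest fold changes in all cKO clones were named, at most 4 a list, and the 5 genes most like Col1a1, Col3a1 and Col5a1, of which 1 for Col1a1 is not reported here. P4ha1, P4ha3, Plod2, Ppib, Fkbp10, Fkbp14, Lox, Loxl1, Col6a1, Smad3 and Cebpb were named after their values were seen. The genes studied and all lists were chosen with earlier results of these data known. Motifs were searched in the 250 bases before each RefSeq start. The study's legend counts as many mice as clones in each group, the labels do not tie clones to mice, and p-values measure the spread between clones. Within groups, 57.7% to 84.4% of genes differed between clones beyond counting error, so no library was a copy of another. Total counts per clone ranged from 25688946 to 52857424, and the 1 to 28 Col1a2 counts of 4 Fgfr3-WT clones carry the widest counting error.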

Additional observations from a re-analysis of the deposited data

Results flagged for a closer look

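In 51 combinations of a gene or ratio and a group, the gap between the most extreme clone and its neighbour was compared with Dixon's 95% limit, and 8 passed it, where chance alone flags about 1 in 20. Col1a2 was at 1213 TPM in Fgfr3-WT clone 5, far above the other Fgfr3-WT clones, which had at most 0.23 TPM. Col5a2 was at 12.6 TPM in Fgfr3-WT clone 1, below the 228.9 TPM or more of the others, and the log2 ratio of Col5a1 to Col5a2 was 1.27 in that clone against -1.73 or less.

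P28 clone 2 accounted for 4 of the 8. Its Col3a1 was at 67.5 TPM, where the other P28 clones had 356.9 TPM or more. Its log2 ratio of Col3a1 was -6.24 to Col1a1 and -5.84 to Col1a2. The log2 ratio of Serpinh1 to the summed type I chains was the highest of the P28 group there, at -3.90. In the P4M group, the log2 ratio of Pcolce2 to Pcolce was -3.33 in clone 4, against -3.93 or less in the others. No explanation of these values was tested.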

How the results depend on the processing

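Of 862 refits of the fold changes, 792 kept direction and call, 30 lost a call, 19 gained one and 21 changed sign. Col1a1, Col5a1 and Bmp1 were called higher against Fgfr3-WT in every alternative that gave a value. Limma on log2(TPM + 1), which shifts the median of all genes by 0.27 in P28, 0.15 in P4M and 0.23 in all cKO clones against Fgfr3-WT and by -0.14 in P4M against P28, called 6 members higher in P28 and 5 in P4M, where DESeq2 also called 5. Of all genes fitted, limma called 4746 of 14933 higher in P28 and 3990 of 14933 in P4M, and DESeq2 called 4497 of 30503 in P4M. The DESeq2 fit had no filter on low counts, so its share is not comparable with that of edgeR (3873 of 17358 higher in P4M). By the same limma fit the share of higher genes among all called was 72.8% in P28 (49.4% by edgeR), 58.8% in P4M (48.6%), 65.3% in all cKO clones (47.4%) and 23.0% in P4M against P28 (46.3%, and 33.2% without scaling). The call of Pcolce2 as lower in all cKO clones was the only lower one and was lost (0 lower) with RLE scaling, no scaling, no filter, the chains left out of the library total, and limma. Leaving out single clones gave 0 to 2 lower members in all cKO clones and 0 to 2 in P4M, with 2 in both without Fgfr3-WT clone 1. Over all genes, 1254 were called in P4M against P28, 2814 by DESeq2 and 3051 with those groups alone.

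Signs that changed were all of uncalled values. By limma on TPM these were Pcolce in P28 (0.26), Col3a1 (-0.37) and Serpinh1 (0.14, and 0.034 without a filter) in P4M, and in P4M against P28 Col1a1 (-0.017), Col1a2 (-0.17), Col5a2 (-0.033) and Pcolce2 (0.052). Without single clones the range was -0.63 to 0.16 for Pcolce in P28, -3.97 to 1.48 for Col3a1, -1.26 to 1.20 for Col5a3 and -0.27 to 0.13 for Serpinh1 in P4M, and -1.02 to 2.04 for Col3a1 in all cKO clones. In P4M against P28 it was -0.095 to 0.80 for Col1a1, -0.25 to 0.44 for Col1a2, -0.45 to 0.27 for Pcolce2 and -0.081 to 0.24 for the ratio of Col5a1 to Col5a2. As a share of counts in place of TPM, the 6 chains took 0.309%, 4.27% and 5.03% in Fgfr3-WT, P28 and P4M. The causes were not tested. A minimum of 10 counts in every clone left no value for Col1a2 and Col3a1. No paired analysis was possible because the labels give no replicate numbers that groups share.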
